A study of Homo sapiens with 10 samples.

Results

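FICD and 9 genes of the endoplasmic reticulum (ER) were followed through RNA-Seq libraries of EA.hy926 cells. *FICD* was described with *HSPA5*, *DNAJB9*, *SDF2L1*, *PDIA4*, *HYOU1*, *XBP1*, *CRELD2*, *MANF* and *HSP90B1*, which are chaperones, folding enzymes and stress factors of the same compartment. Members were found by their symbols, and the transcript with the highest mean FPKM (fragments per kilobase of transcript, scaled to the size of the library) stood for each gene. The 10 genes are 10 of the 27945 symbols in the table, with 16 transcript entries among them, and all 10 were among the 13333 genes that passed the filter on low values. The set was chosen on FPKM values and fitted changes in these libraries that were already known. The values and false-discovery rates (FDRs) given here therefore describe these libraries, and they are no independent test of *FICD* or of the set.

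EA.hy926 is an established human endothelial hybrid line, made by fusing umbilical vein endothelial cells with A549 lung carcinoma cells. The libraries came from 3 clonal lines with a homozygous deletion of the promoter of *VEGFA-LNC*, 3 with that of *VEGFC-LNC*, and 2 controls for each deletion. Both are long noncoding RNAs (lncRNAs), and the deletions were made with Cas9 ribonucleoproteins carrying a pair of flanking guide RNAs. Cells of the controls were given guides by the same lipofection, but no Cas9, and were then put through clonal selection like the deletion lines, so that all libraries share delivery of guides and growth in culture. The labels call the deletion genotypes VEGFA_lincRNA and VEGFC_lincRNA knock-outs. No transcript was matched to either lncRNA by name, and the deletions themselves were not checked here. Of 12 endothelial marker genes, 11 passed the filter, and *CLDN5* was listed at 0 in all 10 libraries. *CDH5* was between 56.6 and 312 FPKM, while *KDR* was between 0.036 and 1.39 FPKM and *VWF* between 0.65 and 8.78 FPKM. *EMCN* was at 4.83 to 6.74 FPKM in the controls and at 0.022 to 1.54 FPKM in the clones. Of the epithelial markers, the keratin *KRT18* had 101 to 436 FPKM, while the keratin *KRT19* stayed at or under 0.354 FPKM, *EPCAM* at or under 0.505 FPKM and the leukocyte marker *PTPRC* at or under 0.123 FPKM. Library sizes ran from 6743974 reads in *VEGFC-LNC* deletion 3 to 24197627 reads in *VEGFC-LNC* control 2. The 2 controls of a set were far closer to each other than clones were. Their counts differed by a chi-square per degree of freedom of 3.76 in the *VEGFA-LNC* set and 1.54 in the *VEGFC-LNC* set, against 18.3 to 138 between clones of 1 deletion. P-values measure only the spread between these samples, which for the controls may be technical.

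Secretory and membrane proteins fold in the ER, and an excess of unfolded protein there starts the unfolded protein response. The chaperone BiP, encoded by *HSPA5*, binds unfolded chains and keeps the stress sensors silent. When BiP is called away, the sensor IRE1 splices the mRNA of *XBP1*, PERK acts through ATF4 and CHOP, and ATF6 is cleaved to a transcription factor. XBP1 and ATF6 bind ER stress elements in the promoters of chaperone genes. FICD sits in the ER membrane, where it attaches AMP to BiP when folding demand is low and removes it when demand is high. Endothelial cells secrete large glycoproteins and rely on this machinery.

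The regions upstream of the start sites were read from RefSeq on GRCh38.p14, in windows of 250 bases before the start and 50 after it, since the response acts on these genes through short promoter elements. All 10 genes had a window, 12 windows in all. Stretches of 250 bases before the start are printed for *FICD* and *XBP1*, the pair whose levels moved together, for *HSPA5* as the main target of the response, and for *DNAJB9*, which held no match. Capitals mark a match to the ER stress element (ERSE), which reads CCAAT, then any 9 bases, then CCACG.
*FICD* (chr12:108515027-108515276, plus strand): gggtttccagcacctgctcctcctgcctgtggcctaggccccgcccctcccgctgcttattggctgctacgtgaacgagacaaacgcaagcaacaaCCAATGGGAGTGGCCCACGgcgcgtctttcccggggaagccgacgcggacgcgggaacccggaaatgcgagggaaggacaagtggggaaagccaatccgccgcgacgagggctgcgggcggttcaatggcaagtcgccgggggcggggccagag
*XBP1* (chr22:28800570-28800819, minus strand): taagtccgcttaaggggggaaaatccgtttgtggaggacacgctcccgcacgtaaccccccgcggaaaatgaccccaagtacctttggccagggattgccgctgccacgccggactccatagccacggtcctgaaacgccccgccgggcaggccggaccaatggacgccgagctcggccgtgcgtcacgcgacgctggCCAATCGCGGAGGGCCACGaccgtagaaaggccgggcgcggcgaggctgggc
*HSPA5* (chr9:125241344-125241593, minus strand): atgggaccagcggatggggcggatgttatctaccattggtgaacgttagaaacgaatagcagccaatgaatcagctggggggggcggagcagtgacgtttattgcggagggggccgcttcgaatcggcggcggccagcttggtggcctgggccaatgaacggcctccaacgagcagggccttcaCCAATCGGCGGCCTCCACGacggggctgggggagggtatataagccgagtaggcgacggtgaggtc
*DNAJB9* (chr7:108569624-108569873, plus strand): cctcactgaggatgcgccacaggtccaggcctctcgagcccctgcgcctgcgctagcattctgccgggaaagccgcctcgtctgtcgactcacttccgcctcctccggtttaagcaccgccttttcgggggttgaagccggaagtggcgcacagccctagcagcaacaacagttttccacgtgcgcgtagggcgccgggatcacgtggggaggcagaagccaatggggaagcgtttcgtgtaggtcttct

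Matches were sought on both strands. ERSE was found in 5 of the 10 genes and in 27 of all 35116 windows (0.0769%). Counted from the start site, it lay at −154 to −136 in *FICD*, −52 to −34 in *XBP1* in 1 of its 2 windows, and −66 to −48 in *HSPA5*. *HSP90B1* held the element at −194 to −176 and again, on the opposite strand, at −89 to −71. *CRELD2* held it on the opposite strand at −80 to −62, where the gene strand reads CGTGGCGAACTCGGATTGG. The ERSE-II element, which reads ATTGG, then any base, then CCACG, occurred in 0.0541% of windows and in *SDF2L1* and *HYOU1*. Its site in *SDF2L1* reads CGTGGACCAAT on the gene strand at −188 to −178, and *HYOU1* has CGTGGTCCAAT at −185 to −175 and at −79 to −69. The UPR element TGACGTGG occurred in 0.729% of windows and, among the 10 genes, in *HYOU1*, where it overlaps the first ERSE-II site. No match to these letters was found in the windows of *DNAJB9*, *PDIA4* and *MANF*. The genes with an ERSE include both *FICD* and *XBP1*, which passed the thresholds in comparisons described next, and *HSPA5*, *HSP90B1* and *CRELD2*, which passed them in none.

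**Figure D1:**
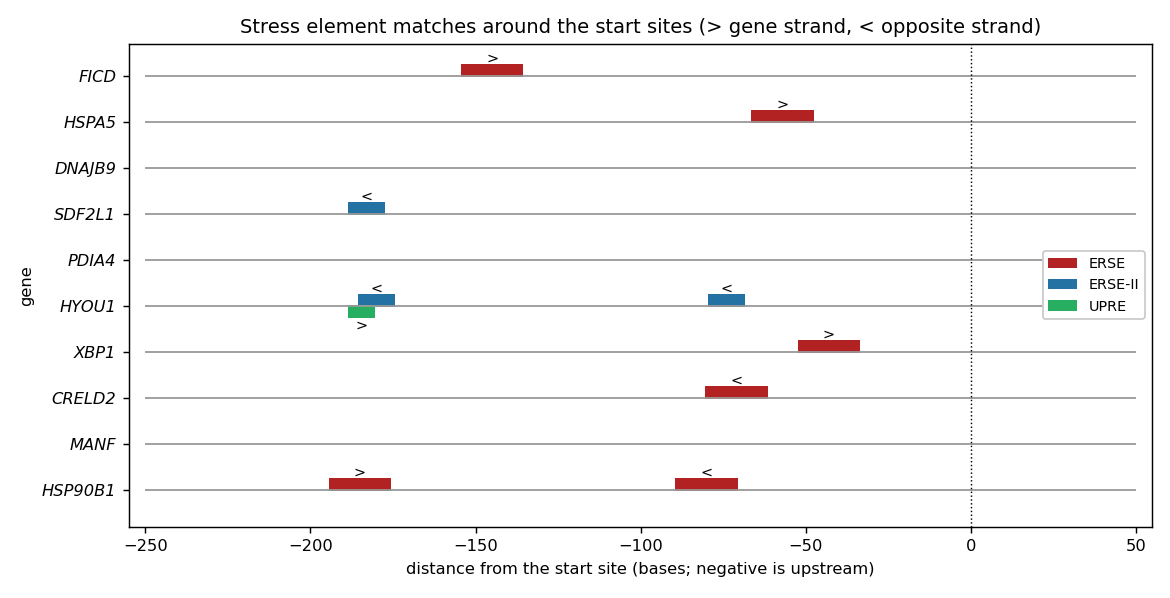
Matches to the ERSE, ERSE-II and UPR element in the window around the start site of each of the 10 genes, with distance from the start in bases on the x axis and genes on the y axis. Arrowheads give the strand, > for the gene strand and < for the opposite one, and *FICD*, *HSPA5*, *XBP1*, *CRELD2* and *HSP90B1* are the genes with an ERSE.

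In FPKM, which are levels per length, *HSP90B1* and *HSPA5* were the highest of the 10 genes. *HSP90B1*, the ER member of the HSP90 family, averaged 255 FPKM over the 10 libraries and *HSPA5* 226 FPKM, which placed them at ranks 181 and 206 of the tested genes. *PDIA4*, a protein disulfide isomerase, averaged 139 FPKM. *HYOU1*, a nucleotide exchange factor for BiP, averaged 38.3 FPKM, *MANF* 33.0 FPKM and *XBP1* 30.8 FPKM. *CRELD2* followed with 12.2 FPKM, *DNAJB9* with 11.4 FPKM, *SDF2L1* with 6.99 FPKM and *FICD* with 3.95 FPKM. Among neighbours in this order, the ranges over libraries were apart for *PDIA4* and *HYOU1* and for *XBP1* and *CRELD2*, and they overlapped for the other 7 neighbouring pairs. The widest range belonged to *DNAJB9*, whose highest library was 3.68 times its lowest, followed by *FICD* at 3.48 times. *PDIA4* was the steadiest, at 1.42 times. The summed level of the 10 genes was 745 to 765 FPKM in the *VEGFA-LNC* controls and 751 to 766 FPKM in the *VEGFC-LNC* controls, 715 to 721 FPKM in the *VEGFA-LNC* deletion clones and 690 to 894 FPKM in the *VEGFC-LNC* deletion clones.

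The 10 genes lie apart on 6 chromosomes of hg19, with 3 of them on chromosome 22. These 3 are *SDF2L1* (NM_022044, 21996542 to 21998588, plus strand), *XBP1* (NM_001079539, 29190548 to 29196560, minus strand) and *CRELD2* (NM_001284317, 50312278 to 50321188, plus strand). *HSP90B1* (NM_003299) is on chromosome 12 with *FICD*, from 104324112 to 104341708 on the plus strand. Chromosome 7 holds *DNAJB9* (NM_012328, 108210189 to 108215294, plus strand) and *PDIA4* (NM_004911, 148700154 to 148725782, minus strand). *HSPA5* (NM_005347) lies on chromosome 9 from 127997127 to 128003666 on the minus strand and *HYOU1* (NM_001130991) on chromosome 11 from 118914896 to 118927957 on the minus strand. *MANF* (NM_006010) lies on chromosome 3 from 51422668 to 51426828 on the plus strand.

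*FICD* (NM_007076) lies on chromosome 12 from 108909051 to 108913380 on the plus strand of hg19. Its level was 6.67 and 6.73 FPKM in the *VEGFA-LNC* controls and 3.51, 4.05 and 3.56 FPKM in the *VEGFA-LNC* deletion clones. It was 1.98 and 1.93 FPKM in the *VEGFC-LNC* controls and 3.66, 3.48 and 3.87 FPKM in the *VEGFC-LNC* deletion clones. The 6 clones of both deletions thus lay within 3.48 to 4.05 FPKM, below both *VEGFA-LNC* controls and above both *VEGFC-LNC* controls, and neither set of clones overlapped its controls. Group means were 6.70 ± 0.0382 FPKM (SD, n = 2) in the *VEGFA-LNC* controls, 3.71 ± 0.298 FPKM (n = 3) in their clones, 1.96 ± 0.0361 FPKM (n = 2) in the *VEGFC-LNC* controls and 3.67 ± 0.196 FPKM (n = 3) in their clones. These values rest on 31 to 250 reads per library, with the fewest in *VEGFC-LNC* control 1. In bulk RNA, fewer cells that express a gene and less of its RNA per cell cannot be told apart.

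**Figure D2:**
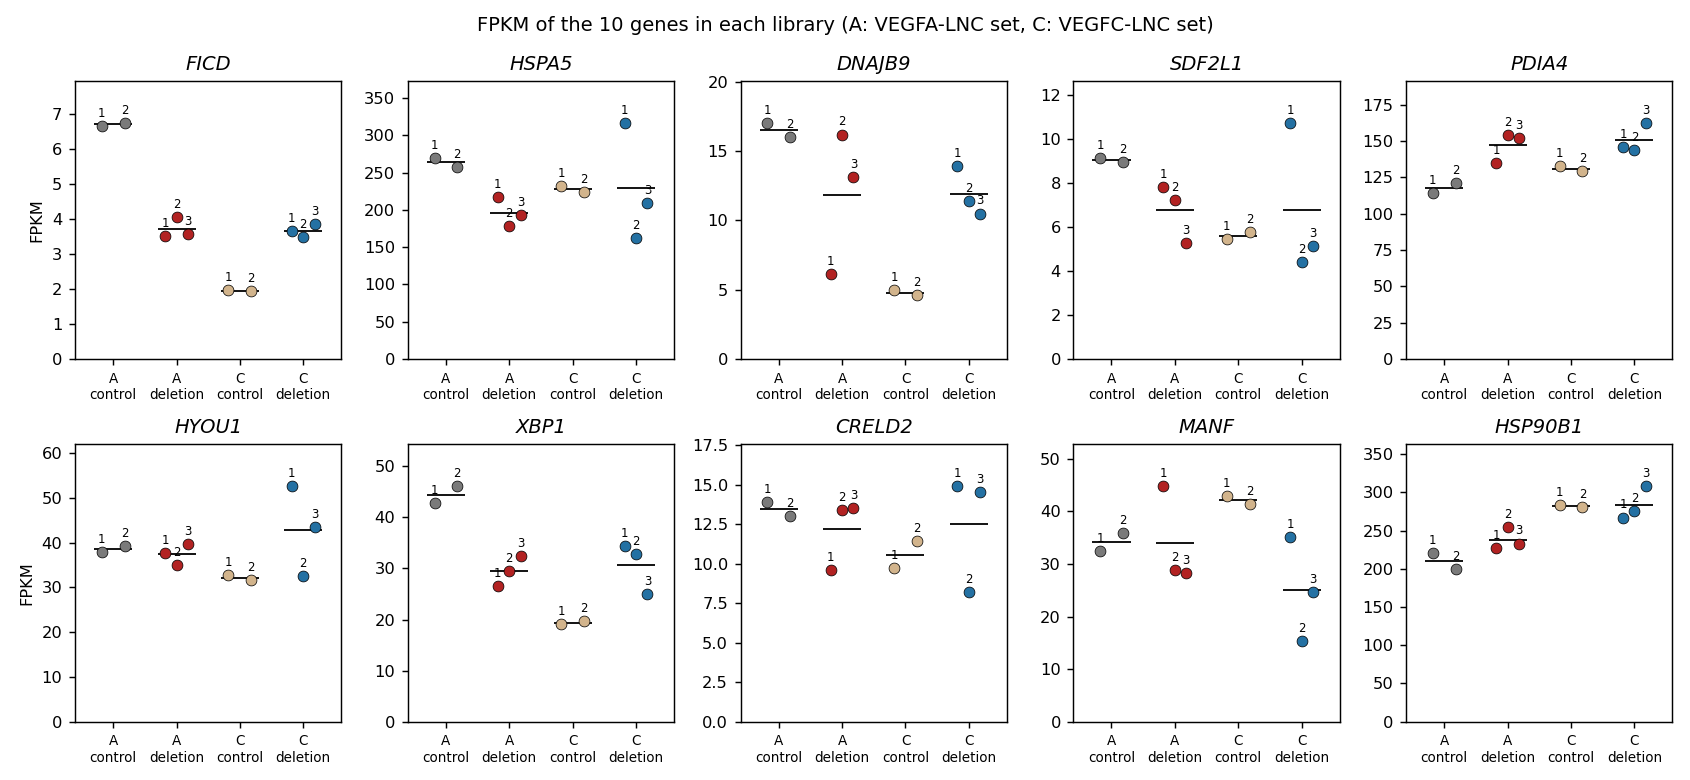
FPKM of each of the 10 genes in each library, with 1 panel per gene, FPKM on the y axis from 0, and the 4 groups on the x axis (A is the *VEGFA-LNC* set and C the *VEGFC-LNC* set). Points are libraries numbered by replicate and bars are group means. For *FICD* the 6 deletion clones sit between 3.48 and 4.05 FPKM, between the *VEGFC-LNC* controls near 1.96 FPKM and the *VEGFA-LNC* controls near 6.7 FPKM.

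Upon *VEGFA-LNC* deletion, *FICD* was the gene among the 10 that was downregulated past the study's thresholds, which are 0.05 for the FDR and 1.5 for the fold change (FC). Its level was 1.79-fold lower than in the controls, with a log2 FC of −0.84 (SE 0.14, 95% CI −1.16 to −0.52, FDR 0.0232 by limma with Benjamini-Hochberg adjustment over all tested genes). This made 1 of 10 genes differentially expressed, where 2.75% of all tested genes were, 2.02% lower and 0.735% higher. An exact two-sided permutation test of the 3 clones against the 2 controls gave *p* = 0.2 for *FICD*, the same as for every gene whose groups did not overlap. The *FICD* call ended without either *VEGFA-LNC* control (FDR 0.243 and 0.284), without *VEGFA-LNC* deletion 3 (FDR 0.0638), and without either *VEGFC-LNC* control (FDR 0.0645 and 0.0643), which enter through the shared spread. With the 2 controls of each set averaged into 1 value, limma called 0 of the 10 genes, with 2 at an unadjusted *p* under 0.05, and the FDR of *FICD* was 0.646. With the replicate number as a block it was 0.062. Leaving out a control leaves 1 sample in its group, and most calls over all tested genes then ended in every comparison described here.

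*XBP1*, the transcription factor activated by IRE1, had values in the same direction as *FICD*, with 42.8 and 46.1 FPKM in the *VEGFA-LNC* controls and 26.6, 29.4 and 32.5 FPKM in the deletion clones. All 3 clones were below both controls, and the log2 FC of −0.59 (SE 0.16) missed the threshold with an FDR of 0.0854 in limma. The spliced and unspliced mRNAs cannot be told apart here, since the 2 *XBP1* entries overlap and share reads. *DNAJB9*, a BiP cochaperone that represses IRE1, was split among clones, with 17.0 and 16.0 FPKM in the controls and 6.16, 16.2 and 13.1 FPKM in the clones. Clone 1 was the low one, clone 2 lay between the controls, and the fitted log2 FC of −0.59 (SE 0.35, FDR 0.395 in limma) became −0.17 without clone 1.

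The chaperones differed less from their controls upon *VEGFA-LNC* deletion. *HSPA5* had 270 and 258 FPKM in the controls and 217, 178 and 193 FPKM in the clones. Every clone was lower, with a log2 FC of −0.43 (95% CI −0.99 to 0.13) and an FDR of 0.382 in limma. *PDIA4* ran the other way, from 114 and 121 FPKM in the controls to 135, 154 and 152 FPKM in the clones, with a log2 FC of 0.32 (SE 0.12, FDR 0.195). The groups of *SDF2L1*, part of an ER chaperone complex, and *HSP90B1* did not overlap either, with log2 FCs of −0.43 (FDR 0.535) and 0.18 (FDR 0.508). In all, the groups were apart for 6 of the 10 genes, against 39.0% of all tested genes. *HYOU1*, *CRELD2* and *MANF* overlapped between clones and controls, with log2 FCs of −0.05, −0.16 and −0.04. The median log2 FC of the 10 genes was −0.29, and that of all tested genes was −0.06.

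Upon *VEGFC-LNC* deletion, *FICD* was upregulated, 1.83-fold above its controls, with a log2 FC of 0.87 (SE 0.14, 95% CI 0.55 to 1.19) and an FDR of 0.0396 in limma. It was again the 1 gene of the 10 past both thresholds, where 0.473% of all tested genes were, 0.150% higher and 0.323% lower. The exact permutation test, which cannot pass 0.05 with 3 clones against 2 controls, gave *p* = 0.2 (two-sided). The call was lost in limma with the reads recovered from the FPKM values and fitted by voom (FDR 0.0888), with a pseudocount of 1 (FDR 0.0502) and with no filter on low values (FDR 0.0556). It was also lost without any one of the 4 controls (FDR 0.133, 0.135, 0.435 and 0.405), without *VEGFA-LNC* deletion 3 (FDR 0.0708) and without *VEGFC-LNC* deletion 1, 2 or 3 (FDR 0.0562, 0.09 and 0.0696). With the replicate number as a block the FDR was 0.11, and with control pairs averaged it was 0.876.

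*DNAJB9* had the largest fitted change of the 10 genes upon *VEGFC-LNC* deletion, with 4.95 and 4.62 FPKM in the controls and 13.9, 11.4 and 10.5 FPKM in the clones. All 3 clones lay above both controls, and the log2 FC was 1.29 (95% CI 0.51 to 2.08, FDR 0.129 in limma). Against all 4 controls as 1 group it was 0.41 (FDR 0.702), below that of *MANF* in size (−0.68, FDR 0.257). *XBP1* had 19.1 and 19.7 FPKM in the controls and 34.3, 32.9 and 25.0 FPKM in the clones, all 3 above both controls, with a log2 FC of 0.65 (SE 0.16, FDR 0.108) that missed the threshold. Both genes passed it when *VEGFA-LNC* deletion 1, which stands apart from the other clones of its group, was left out of the shared spread (FDR 0.00656 for *DNAJB9* and 0.033 for *XBP1*), and 3 of the 10 genes were then called. Over all 13333 tested genes, the calls upon *VEGFC-LNC* deletion rose from 63 to 1158 in that fit.

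The chaperones were spread widely among the *VEGFC-LNC* deletion clones. *HSPA5* was 232 and 224 FPKM in the controls and 316, 162 and 209 FPKM in the clones. Clone 1 was above both controls and clones 2 and 3 were below both, and the log2 FC was −0.05 (95% CI −0.61 to 0.51, FDR 0.924). The same clone was the highest of its group for *HYOU1* (52.6 against 32.6 and 43.5 FPKM), *SDF2L1* (10.7 against 4.42 and 5.12 FPKM), *CRELD2* (14.9 against 8.19 and 14.5 FPKM) and *MANF* (35.2 against 15.3 and 24.6 FPKM). Clone 2 was the lowest for each of these 5 genes. *MANF*, a secreted factor that also binds BiP in the ER, had 43.0 and 41.4 FPKM in the controls, above all 3 clones, with a log2 FC of −0.83 (SE 0.32, FDR 0.232). *PDIA4* was above its controls in every clone, with a log2 FC of 0.20 (FDR 0.389), and *HSP90B1* was at a log2 FC of 0.00 (95% CI −0.30 to 0.31). The groups were apart for 5 of the 10 genes, against 47.8% of all tested genes, and the median log2 FC was 0.20 where that of all tested genes was −0.09.

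**Figure D3:**
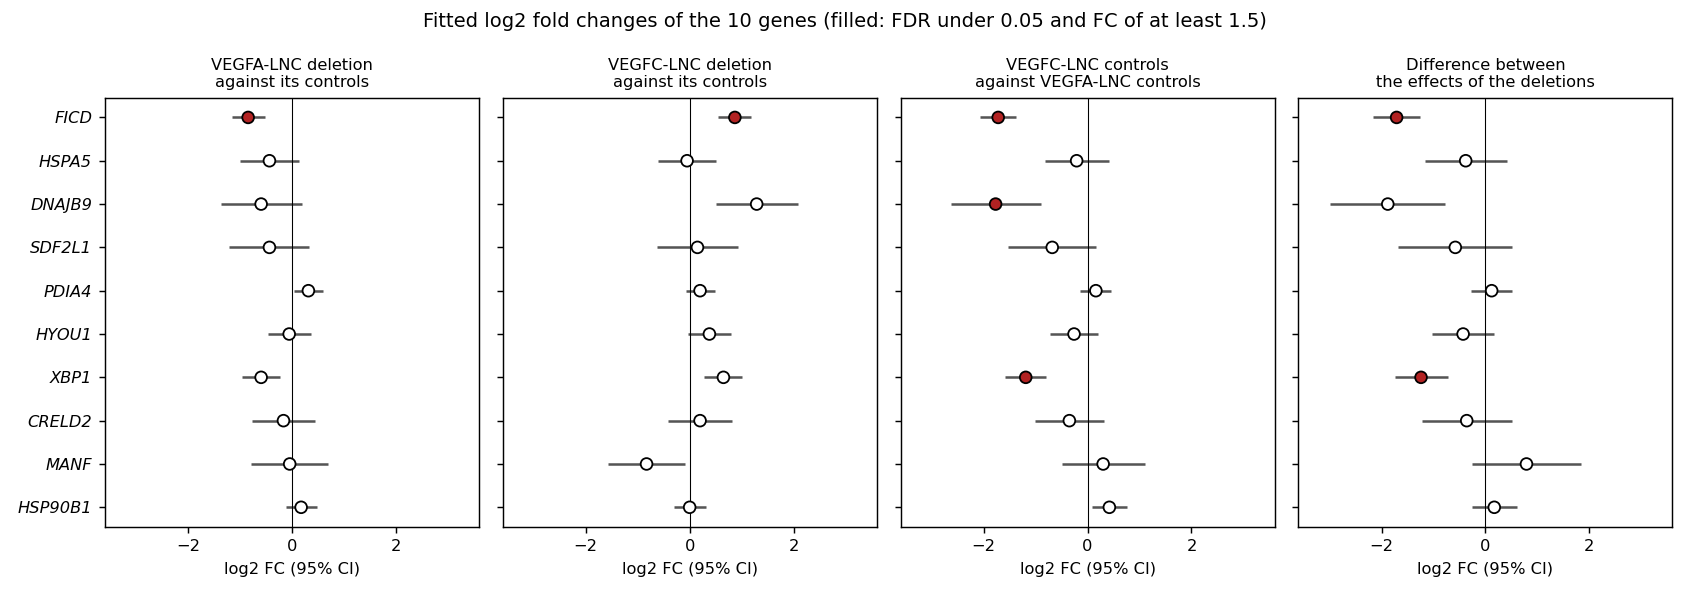
Fitted log2 FC of each of the 10 genes (x axis, with 95% CI as bars) in the 4 comparisons, 1 panel each. Filled red points passed both thresholds, on FDR and on FC. *FICD* is filled in all 4 panels, on the lower side upon *VEGFA-LNC* deletion (−0.84) and on the higher side upon *VEGFC-LNC* deletion (0.87).

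The 2 control sets were then set against each other, since each deletion was read against its own. The labels name a control set for each deletion and do not say how else the sets differ, and the source of a difference between them cannot be told apart. *FICD* was 3.30-fold lower in the *VEGFC-LNC* controls than in the *VEGFA-LNC* controls, with a log2 FC of −1.72 (SE 0.15, FDR 0.00199 in limma). *DNAJB9* was 3.40-fold lower, with a log2 FC of −1.77 (SE 0.38, FDR 0.022), and *XBP1* was 2.28-fold lower, with a log2 FC of −1.19 (SE 0.17, FDR 0.00677). These 3 of 10 genes passed the thresholds, all in 1 direction, where 12.7% of all tested genes passed, 9.76% lower and 2.92% higher. The *FICD* call held without each of the 10 libraries in turn, with FDRs of 0.000645 to 0.0459. The calls of *DNAJB9* and *XBP1* ended without any one of the 4 controls, as did most calls over all tested genes. Their log2 FCs in those fits were −1.82 to −1.72 and −1.25 to −1.14. With the controls of each set averaged, limma called 0 of the 10 genes and 3 had an unadjusted *p* under 0.05.

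The major chaperones were not called between the control sets. *HSPA5* had a log2 FC of −0.21 (95% CI −0.82 to 0.41), *PDIA4* of 0.16 (−0.15 to 0.46) and *HSP90B1*, the gene with 221 and 200 against 283 and 281 FPKM, of 0.42 (0.09 to 0.76, FDR 0.0874). All 10 genes had groups that did not overlap between the 2 pairs of controls, as did 82.9% of all tested genes. The ratio of *HSPA5* to *FICD* within a library, both in FPKM, was 40.4 and 38.3 in the *VEGFA-LNC* controls and 117 and 116 in the *VEGFC-LNC* controls. It was 61.8, 43.9 and 54.3 in the *VEGFA-LNC* deletion clones and 86.3, 46.6 and 54.0 in the *VEGFC-LNC* deletion clones. All 6 clones lay between the control sets in this ratio. Its denominator is *FICD*, whose own levels in the 6 clones lay between the control sets, so the ratio is no separate observation.

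Subtracting the effect of *VEGFC-LNC* deletion on *FICD* from that of *VEGFA-LNC* deletion gave −1.71 on the log2 scale (SE 0.20, FDR 0.00849 in limma). That of *XBP1* was −1.24 (SE 0.22, FDR 0.0372), and that of *DNAJB9* was −1.88 (SE 0.49, FDR 0.1). These made 2 of 10 genes past the thresholds, where 1.46% of all tested genes passed, 0.863% lower and 0.593% higher. This contrast uses the same 4 controls as the comparison of control sets. It holds the gap between those sets, which was −1.72 for *FICD* and −1.19 for *XBP1*. The clone means of the *VEGFA-LNC* and *VEGFC-LNC* deletions were 3.71 and 3.67 FPKM for *FICD* and 29.5 and 30.7 FPKM for *XBP1*. Without any one of the controls, neither gene was called (FDR 0.0707 to 0.0983 for *FICD* and 0.177 to 0.235 for *XBP1*). The *XBP1* call was also lost without *VEGFA-LNC* deletion 2 or 3 (FDR 0.0597 and 0.0578) and without *VEGFC-LNC* deletion 1 or 2 (FDR 0.0588 and 0.0735), and with the replicate number as a block (FDR 0.0739). Without *VEGFA-LNC* deletion 1, *DNAJB9* was called as well (FDR 0.0146), for 3 genes, where 694 of 13333 tested genes were called. When all 4 controls were taken as 1 group, the log2 FC of *FICD* was 0.02 upon *VEGFA-LNC* deletion and 0.01 upon *VEGFC-LNC* deletion, with FDRs of 0.984 and 0.992. Those of *XBP1* were then 0.00 and 0.05.

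Deletion clones that all lay between the 2 control sets, as for *FICD*, were found for 2 of the 10 genes, *FICD* and *XBP1*, and for 393 of all tested genes (2.95%). In 264 of the 393 the *VEGFA-LNC* controls were the higher set. From the other ER lists described below, the same order of levels was found for *ERN1* (1 of 6 stress sensors) and for *DNAJC3* and *SDF2* (2 of 25 other chaperones and folding enzymes). In the ATF4-CHOP arm it was found for *ATF3* and *CHAC1* (2 of 10). It was found for 0 of 14 genes of ER-associated degradation and 0 of 20 of ER translocation and retrieval.

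**Figure D4:**
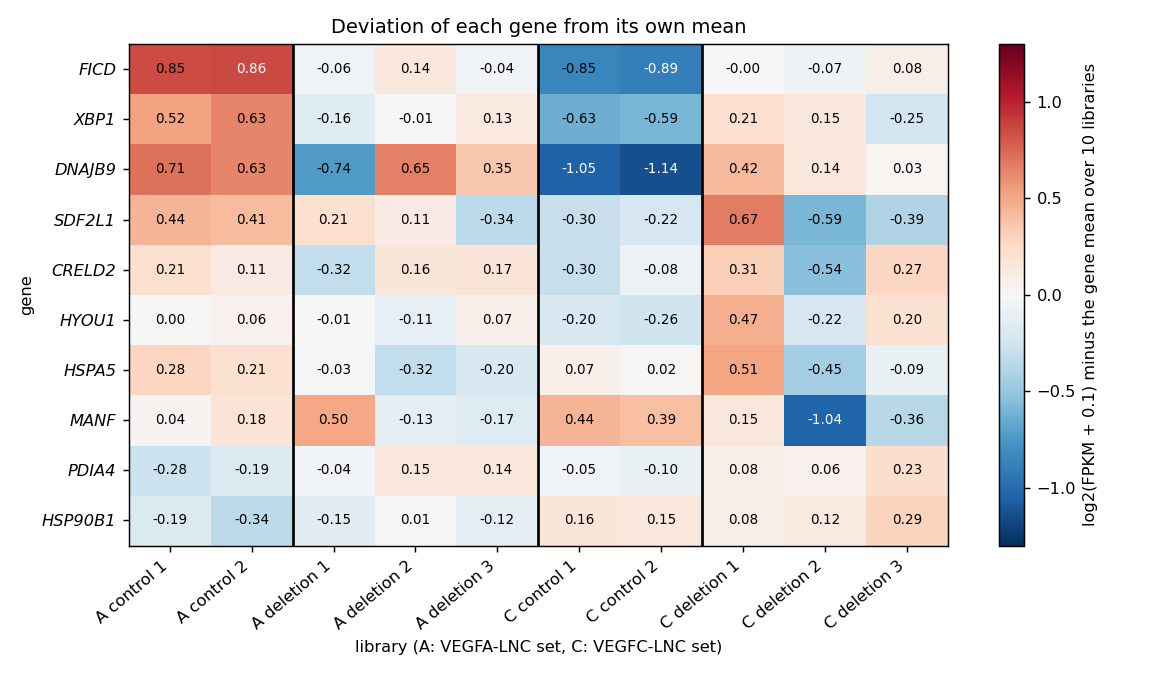
Deviation of each of the 10 genes (rows) in each library (columns) from the mean of that gene over the 10 libraries, in log2(FPKM + 0.1), with red above and blue below the mean. *FICD*, *XBP1*, *DNAJB9*, *SDF2L1* and *CRELD2* are above their means in both *VEGFA-LNC* controls and below them in both *VEGFC-LNC* controls. *HSP90B1* is below its mean in the *VEGFA-LNC* controls and above it in the *VEGFC-LNC* controls, and *PDIA4* is below its mean in all 4 controls.

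Over the 10 libraries, *FICD* followed *XBP1* (Pearson's r = 0.925) and *DNAJB9* (r = 0.852) in log2(FPKM + 0.1). Its r was 0.228 with *HSPA5*, 0.544 with *SDF2L1*, 0.45 with *CRELD2*, 0.405 with *HYOU1*, −0.22 with *MANF*, −0.276 with *PDIA4* and −0.691 with *HSP90B1*. *HSPA5* itself followed *SDF2L1* (r = 0.782), *MANF* (r = 0.609) and *HYOU1* (r = 0.593). The 10 points share groups, controls and clones, and these values are a description. Among 11754 tested genes with a mean of at least 1 FPKM, the 5 most like *FICD* were *IL13RA1* (r = 0.982), *RFPL4AL1* (0.979), *HRH1* (0.974), *RFPL4A* (0.968) and *YIPF5* (0.961). *RFPL4A* and *RFPL4AL1* are near-identical copies, and their values are uncertain. *XBP1* ranked 35, *ATF3* 63 (r = 0.906), *ERN1* 181 (r = 0.869) and *DDIT3* 266 (r = 0.848), while *ATF4* ranked 3669 (r = 0.396). The 5 genes most like *HSPA5* were *TMEM39A* (r = 0.956), *BMS1P4* (0.936), *BIVM-ERCC5* (0.936), *ABCB8* (0.933) and *ERCC5* (0.927), of which *BIVM-ERCC5* and *ERCC5* overlap and share reads.

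Genes around *FICD*, *XBP1* and *DNAJB9* were looked at to see whether a stretch of chromosome moved with them. Within 1 Mb of *FICD* on hg19, 14 other genes were tested, with median log2 FCs of −0.19 upon *VEGFA-LNC* deletion, 0.05 upon *VEGFC-LNC* deletion and −0.24 between the control sets. Limma called 0, 0 and 1 of them (1, 0 and 2 at an unadjusted *p* under 0.05, and 0, 0 and 2 by voom). The 19 genes around *XBP1* had medians of −0.09, −0.09 and −0.12, with 0, 0 and 2 called (2, 2 and 5 at an unadjusted *p* under 0.05, and 0, 0 and 3 by voom). The 11 around *DNAJB9* had medians of −0.02, 0.20 and −0.43, with 0, 0 and 1 called (3, 0 and 5 at an unadjusted *p* under 0.05, and 0 by voom in each). Between the control sets 10 of these 11 genes were lower in the *VEGFC-LNC* controls, as *DNAJB9* was, while 41.9% of all tested genes were higher there. Of all 13333 tested genes, limma called 2.75%, 0.473% and 12.7% in these comparisons. An unadjusted *p* under 0.05 was found in limma for 2642, 2508 and 4171 of them.

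The sensors and effectors upstream of these genes were described next. Of 6 stress sensors and their activators, limma called 0 upon either deletion (0 and 2 at an unadjusted *p* under 0.05, and 0 by voom in both). Of all 13333 tested genes, 2642 and 2508 had an unadjusted *p* under 0.05 in limma upon the deletions. Without *VEGFA-LNC* deletion 1 limma called 1 of the 6 upon *VEGFC-LNC* deletion, where 1158 of all tested genes were called. *ERN1*, which encodes IRE1, had 6.39 and 6.94 FPKM in the *VEGFA-LNC* controls, 2.53, 4.71 and 5.99 FPKM in their clones, 1.89 and 1.70 FPKM in the *VEGFC-LNC* controls and 2.56, 3.79 and 3.33 FPKM in their clones. Its groups did not overlap in either set, as for *FICD*, and it was lower in the *VEGFC-LNC* controls by a log2 FC of −1.84 (FDR 0.0166 in limma, lost without any one control). *EIF2AK3*, which encodes PERK, had log2 FCs of −0.36 and −0.01 upon the deletions, and *MBTPS1*, a protease that cleaves ATF6, of 0.21 and −0.32.

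The ATF4-CHOP arm lies downstream of PERK. Upon *VEGFA-LNC* deletion 3 of its 10 genes were downregulated, where 2.02% of all tested genes were. *ATF3*, a stress-induced transcription factor, had 85.1 and 87.5 FPKM in the controls and 10.2, 16.5 and 21.0 FPKM in the clones, with a log2 FC of −2.49 (SE 0.31, FDR 0.00794 in limma). *DDIT3*, which encodes CHOP, had 110 and 104 FPKM in the controls and 15.5 to 31.4 FPKM in the clones, with a log2 FC of −2.31 (SE 0.28, FDR 0.0077). *PPP1R15A*, the stress-induced phosphatase subunit GADD34, was also lower, with a log2 FC of −1.43 (FDR 0.00685). These calls were lost in limma without either *VEGFA-LNC* control, at FDRs of 0.108 to 0.137. Against all 4 controls as 1 group, the log2 FCs were −0.37 for *ATF3* (FDR 0.902), −0.61 for *DDIT3* (FDR 0.782) and −0.27 for *PPP1R15A* (FDR 0.866). Upon *VEGFC-LNC* deletion 0 of the 10 were called by limma or voom. In limma 6 had an unadjusted *p* under 0.05, all higher, where 2508 of 13333 tested genes had one. *CHAC1*, a glutathione-degrading enzyme, had the largest value there (log2 FC 1.94, FDR 0.112), followed by *DDIT4* (1.67, FDR 0.195). Without *VEGFA-LNC* deletion 1, limma called 4 of the 10, and without *VEGFC-LNC* deletion 3 it called 1. Over all 13333 tested genes, the calls upon *VEGFC-LNC* deletion were 1158 and 54 in these fits.

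Between the control sets 6 of the 10 genes of this arm were lower in the *VEGFC-LNC* controls, where 9.76% of all tested genes were, and all 10 had negative values, with a median log2 FC of −2.12 against −0.11 for all tested genes. *ATF3* was at 4.51 and 4.36 FPKM in the *VEGFC-LNC* controls, for a log2 FC of −4.25 (FDR 0.00137 in limma). *DDIT3* was at 10.2 and 9.79 FPKM (log2 FC −3.41, FDR 0.00199). *CHAC1*, *PPP1R15A*, *CEBPB* and *SESN2* were lower by log2 FCs of −2.91, −2.34, −2.28 and −1.97. Limma called fewer of the 10 without any one of the controls, when most calls over all tested genes were lost. In fits without 1 library, the log2 FCs were −4.28 to −4.23 for *ATF3*, −3.45 to −3.36 for *DDIT3* and −3.07 to −2.75 for *CHAC1*. They were −2.42 to −2.26 for *PPP1R15A*, −2.41 to −2.15 for *CEBPB* and −2.01 to −1.92 for *SESN2*. The summed level of the 10 genes was 565 and 567 FPKM in the *VEGFA-LNC* controls, 182 to 183 FPKM in the *VEGFC-LNC* controls, 273 to 329 FPKM in the *VEGFA-LNC* deletion clones and 196 to 408 FPKM in the *VEGFC-LNC* deletion clones. The part of this arm in the levels of *FICD* was not tested.

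Of 25 other ER chaperones and folding enzymes tested (*ERO1B* was under the filter), limma called 0 upon either deletion (5 and 3 at an unadjusted *p* under 0.05, and 0 by voom in both). Such a *p* was found in limma for 2642 and 2508 of all 13333 tested genes. Without *VEGFA-LNC* deletion 1 limma called 4 upon *VEGFA-LNC* deletion, and without *VEGFC-LNC* deletion 2 it called 1. The first of these fits called 1732 of 13333 tested genes upon *VEGFA-LNC* deletion. *FKBP11*, a prolyl isomerase, and *TXNDC5*, a disulfide isomerase, had the largest values upon *VEGFA-LNC* deletion (log2 FC −1.06, FDR 0.263, and −0.92, FDR 0.089), and *PDIA5* and *FKBP11* upon *VEGFC-LNC* deletion (0.66 and 0.63). Between the control sets 5 of the 25 were lower in the *VEGFC-LNC* controls and 0 were higher, where 9.76% and 2.92% of all tested genes were. *TXNDC5* was 180 and 191 FPKM against 84.3 and 86.7 FPKM (log2 FC −1.11, FDR 0.0336 in limma). *SDF2*, *SIL1*, *DNAJC3* and *FKBP14* were lower by log2 FCs of −0.88, −0.86, −0.78 and −0.97. These calls also ended without any one of the controls, as did most calls over all tested genes. Limma called 8 of the list without *VEGFA-LNC* deletion 1 and 3 without *VEGFA-LNC* deletion 3. Over all 13333 tested genes, the calls between the control sets were 3068 without *VEGFA-LNC* deletion 1 and 1435 without *VEGFA-LNC* deletion 3. ERSE was found in the windows of 4 genes of this list, *CALR*, *CANX*, *ERO1B* and *PDIA6*, of 23 with a window. The UPR element was found in 3 others, *DNAJC10*, *TXNDC11* and *TXNDC5*. In the 2 lists described next, *HERPUD1* held an ERSE-II, and *UBE2J1*, *KDELR3*, *SEC62*, *SSR3* and *SSR4* held the UPR element.

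ER-associated degradation, which returns misfolded proteins to the cytosol, had 14 tested genes (*DERL3* was under the filter). Limma called 0 upon either deletion, with 3 and 4 at an unadjusted *p* under 0.05, and voom called 1 and 0. Such a *p* was found in limma for 2642 and 2508 of all 13333 tested genes. A pseudocount of 1 gave 1 call upon *VEGFA-LNC* deletion, where 460 of 13333 tested genes were called. *EDEM1*, a mannosidase-like factor of this route, was 18.6 and 19.0 FPKM in the *VEGFA-LNC* controls and 25.3, 45.7 and 45.2 FPKM in the clones, with a log2 FC of 0.99 (FDR 0.0767 in limma), and *FAM8A1* had a log2 FC of −0.78 (FDR 0.061). *SELENOS* was 14.5 and 14.7 FPKM in the *VEGFC-LNC* controls and 28.1, 25.8 and 25.9 FPKM in the clones, with a log2 FC of 0.86 (FDR 0.058). Limma called 3 in each deletion without *VEGFA-LNC* deletion 1, where 1732 and 1158 of 13333 tested genes were called. It called 1 without *VEGFC-LNC* deletion 1 upon *VEGFA-LNC* deletion and 1 without *VEGFA-LNC* deletion 2 upon *VEGFC-LNC* deletion. In these, 454 and 79 of 13333 tested genes were called. Between the control sets *HERPUD1*, *FAM8A1* and *SELENOS* were lower in the *VEGFC-LNC* controls, by log2 FCs of −1.03, −0.79 and −0.76, which made 3 of 14 against 9.76% of all tested genes. These 3 calls ended without any one of the controls, as did most calls over all tested genes. They became 0 with the median of ratios, 1 without *VEGFA-LNC* deletion 3 and 1 with no filter on low values. Over all tested genes, those fits called 1493 of 13333, 1435 of 13333 and 1893 of 22840.

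Of 20 genes of ER translocation and retrieval, limma called 0 upon either deletion (6 and 3 at an unadjusted *p* under 0.05, and 0 by voom in both). Such a *p* was found in limma for 2642 and 2508 of all 13333 tested genes. Without *VEGFA-LNC* deletion 1, or without *VEGFC-LNC* deletion 2, limma called 1 upon *VEGFA-LNC* deletion, where 1732 and 373 of 13333 tested genes were called. *KDELR3*, a receptor that returns ER proteins from the Golgi, had the largest value upon *VEGFA-LNC* deletion (log2 FC −1.22, FDR 0.0782), followed by *SRPRB* (−0.65), and *SEC11A* (0.47) and *SSR4* (0.45) were the largest upon *VEGFC-LNC* deletion. Between the control sets *SRPRB*, *SEC61A1*, *SSR4* and *KDELR2* were lower in the *VEGFC-LNC* controls, by log2 FCs of −1.05, −0.85, −0.82 and −0.75, which made 4 of 20 against 9.76% of all tested genes. These calls ended without any one of the controls, as did most calls over all tested genes. Limma called 7 of the list without *VEGFA-LNC* deletion 1 and 2 without *VEGFA-LNC* deletion 3. Those fits called 3068 and 1435 of 13333 tested genes.

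Chaperones of the cytosol and mitochondria, which answer to a different stress response, were counted for comparison. Of 13 such genes, limma called 0 in each of the 4 comparisons (2, 4, 2 and 3 at an unadjusted *p* under 0.05, and 0 by voom). Such a *p* was found in limma for 2642, 2508, 4171 and 2473 of all 13333 tested genes. Upon *VEGFA-LNC* deletion the largest values were those of *HSPB1* (log2 FC 0.64) and *HSPA9* (−0.59), and upon *VEGFC-LNC* deletion those of *HSP90AA1* (−1.06) and *HSPE1* (−0.89). Without *VEGFA-LNC* deletion 1, limma called 1 upon *VEGFA-LNC* deletion, 3 upon *VEGFC-LNC* deletion and 1 between the control sets. That fit called 1732, 1158 and 3068 of 13333 tested genes.

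Markers of other cell types were summed beside these results. The endothelial markers summed to 679 and 693 FPKM in the *VEGFA-LNC* controls, 770 and 789 FPKM in the *VEGFC-LNC* controls and 500 to 1339 FPKM in the clones. The lung epithelial markers, 4 of 8 past the filter, summed to 1079 to 1090 FPKM and 901 to 913 FPKM in the controls and to 440 to 1314 FPKM in the clones. The fibroblast markers (2 of 6 past the filter) summed to at most 0.541 FPKM. The leukocyte markers (1 of 5, *LYZ*) summed to 3.42 to 3.93 FPKM in the *VEGFA-LNC* controls and 0.419 to 0.711 FPKM in the *VEGFC-LNC* controls, while *PTPRC* was at or near 0. Their part in the levels of *FICD* was not tested.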

How the data were processed

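Total RNA from EA.hy926 lines was depleted of ribosomal RNA, and directional libraries were sequenced single-end. The submitters' processing notes name Trim Galore 0.4.4, STAR 2.5.4b and featureCounts, with hg19. The authors deposited 1 table of FPKM values per RefSeq transcript, scaled by length and library size, in which 42 of 65572 entries have no symbol and were left out. The paper does not describe how this table was made. The paper's edgeR test was on Gencode counts and was not run here. The deposited values are FPKM per RefSeq transcript, and reads recovered from them were fitted by voom as an alternative. Low values in the deposited FPKM gave whole reads for 100% of values checked (within 0.1 read), from 6743974 to 24197627 reads per library, which sets the counting precision of low genes such as *FICD*.

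The transcript with the highest mean stood for a gene, and genes with a CPM of at least 1 (FPKM times transcript length in kb) in at least 2 libraries were tested. limma 3.58.1 (R 4.3.3) was fitted to log2(FPKM + 0.1) with 4 groups, all 10 libraries and a mean-variance trend. On this scale FCs of low genes are understated. Genes were called at an FDR below 0.05 with an FC of 1.5 or more. Alternatives were other pseudocounts, no filter, median of ratios, the longest transcript, voom on recovered reads, a replicate block, all 4 controls as 1 group, each control pair averaged, and each library left out. Named genes are the 10 members, the genes of the other fixed lists called in a comparison or among the 2 with the largest change in a deletion, and the 5 genes most like *FICD* and *HSPA5*. Members and lists were chosen with earlier results of these data known. Python 3.11.15, pandas 2.3.3 and scipy 1.17.1 were also used.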

Additional observations from a re-analysis of the deposited data

Results flagged for a closer look

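Each deletion effect is taken against its own controls, so the difference between the 2 effects also holds the gap between the control sets. By limma (*VEGFA-LNC* minus *VEGFC-LNC*, Benjamini-Hochberg over all tested genes), that difference passed the thresholds for 6 of the genes named here. Among the 10 genes these were *FICD* (difference of log2 FCs −1.71, FDR 0.00849) and *XBP1* (−1.24, FDR 0.0372). In the ATF4-CHOP arm they were *ATF3* (−3.37, FDR 0.0122), *CHAC1* (−3.55, FDR 0.0464), *DDIT3* (−2.64, FDR 0.0196) and *PPP1R15A* (−1.37, FDR 0.0313). All 6 share the same 4 controls, and each call ended when any one of those controls was left out, as did most calls over all tested genes.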

How the results depend on the processing

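The number of the 10 genes called was 1 upon *VEGFA-LNC* deletion, and it became 0 with a replicate block, against all 4 controls as 1 group and with control pairs averaged. Upon *VEGFC-LNC* deletion it was 1 and became 0 with a pseudocount of 1, no filter on low values, the replicate block, voom, all 4 controls as 1 group and control pairs averaged. Between the control sets it was 3 and became 0 with control pairs averaged. For the difference between the effects it was 2, 1 with the replicate block and 0 with control pairs averaged. With control pairs averaged, limma's calls over all tested genes were 0, 1, 0 and 0 in the 4 comparisons (834, 592, 1224 and 689 at an unadjusted *p* under 0.05), with fewer samples in the fit. Leaving out 1 library at a time gave 0 to 1, 0 to 3, 1 to 3 and 0 to 3 genes called. The median log2 FC of the 10 genes ranged from −0.32 to −0.22, 0.14 to 0.44, −0.35 to −0.26 and −0.62 to −0.20 in the same fits.

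Against all 4 controls as 1 group, the median upon *VEGFA-LNC* deletion was 0.01 and the log2 FCs of *FICD* (0.02), *DNAJB9* (0.30), *HYOU1* (0.08), *CRELD2* (0.02) and *HSP90B1* (−0.03) changed sign, as did that of *SDF2L1* upon *VEGFC-LNC* deletion (−0.19). With the median of ratios, which moved the median of all tested genes between the control sets from −0.11 to 0.00, the members' median there was −0.20, and *HYOU1* (0.01) and *MANF* (0.01) changed sign upon *VEGFA-LNC* deletion and *HSPA5* (0.04) upon *VEGFC-LNC* deletion. In fits without 1 library, values near 0 changed sign for *CRELD2* (−0.24 to 0.01) and *MANF* (−0.26 to 0.07) upon *VEGFA-LNC* deletion and for *HSPA5* (−0.31 to 0.17) and *SDF2L1* (−0.23 to 0.40) upon *VEGFC-LNC* deletion. The cause of these changes was not tested. Over all tested genes, the 367 calls upon *VEGFA-LNC* deletion became 551 with voom, 654 with no filter and 29 against all 4 controls, and the 194 calls for the difference became 329 with no filter. Without *VEGFA-LNC* deletion 1, calls over all 13333 tested genes were 1732, 1158, 3068 and 694 in the 4 comparisons.

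With the replicate number as a block, *FICD* was not called upon either deletion (FDR 0.062 and 0.11), *XBP1* was not called for the difference (FDR 0.0739), and the calls over all tested genes went from 367 to 151, 63 to 20, 1690 to 1628 and 194 to 86. Deviations of same-numbered controls and clones correlated at −0.055 to 0.047, so the numbers were not taken to pair clones with controls. Those of same-numbered clones of the 2 deletions correlated at 0.553, 0.409 and 0.219, a hint from the data that the labels do not explain, and clone 2 of *VEGFA-LNC* deletion with clone 3 of *VEGFC-LNC* deletion at 0.263. Depth limits *SDF2L1* and *FICD* the most among the 10 genes, with 30 and 31 reads in their lowest libraries.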
